A study of Mus musculus with 6 samples.

Results

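The CC chemokines described here are 10 genes of the deposited table, Ccl2, Ccl3, Ccl4, Ccl5, Ccl6, Ccl7, Ccl9, Ccl12, Ccl22 and Ccl24, out of 54532 genes listed. They were picked by gene name, with earlier results of these data known, and each name matched 1 row. All 10 passed the filter on low values (a mean of at least 1 FPKM, fragments scaled to gene length and to the library's total), which kept 9794 genes in all. RNA-seq was carried out on peritoneal macrophages of wild-type C57BL/6J male mice aged 6 to 8 weeks, with 2 libraries per group. The cells of all groups had been drawn into the peritoneum with 1 mL of 3% thioglycolate given 5 days earlier, and were cultured overnight. Control cells were untreated. Model cells received LPS at 500 ng/mL for 5.5 h and then ATP at 2 mM for 0.5 h. To MUS cells, LPS and ATP were given likewise, and muscone, a macrocyclic ketone of musk, was added at 50 μM from 5 h after LPS, which was 0.5 h before ATP. No group received LPS alone or muscone alone, so the effects of LPS and ATP cannot be told apart. The sources used here do not say whether a library came from 1 mouse or from pooled mice, so the p-values measure the spread between libraries, which may be technical.

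CC chemokines are small secreted proteins named for a pair of adjacent cysteines, and they guide leukocytes by binding G protein-coupled receptors. Macrophages that sense LPS through TLR4 switch on many of them through NF-κB and related pathways, and the released proteins draw monocytes, neutrophils, T cells and eosinophils into inflamed tissue. Ccl2, Ccl7 and Ccl12 are ligands of the monocyte receptor Ccr2. Ccl3, Ccl4 and Ccl5 attract monocytes and T cells, and Ccl3 and Ccl5 bind Ccr1. Ccl6 and Ccl9 are rodent chemokines that bind Ccr1, Ccl22 binds Ccr4 on T cells, and Ccl24 is an eotaxin that binds Ccr3 on eosinophils.

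Of the 10 genes, 8 lie on chromosome 11, in a group of 67.8 kb from Ccl2 to Ccl12 and, 1422 kb further along, a group of 139 kb from Ccl5 to Ccl4 (gene positions as listed, which match build GRCm38). Ccl22 is on chromosome 8 (94745590 to 94751699, plus strand) and Ccl24 on chromosome 5 (135569937 to 135573049, minus strand). RefSeq promoter sequences of GRCm38.p6 were at hand for 5 of the 10 genes, namely Ccl3, Ccl6, Ccl9, Ccl12 and Ccl22. The promoters of Ccl9 and Ccl6 are shown because these genes are neighbours with different levels after LPS and ATP, and those of Ccl12 and Ccl3 because they stand for the gene groups at Ccl2 and at Ccl4. Each sequence runs from 180 bases before to 20 bases after the transcription start given by RefSeq. For Ccl3 and Ccl22 this start differs from the listed gene start. The printed Ccl3 sequence lies wholly outside the listed gene, which ends at 83649355, and the RefSeq start of Ccl22 lies inside the listed gene. Capitals mark a match to the AP-1 motif TGANTCA, to the TATA motif TATAAA or to the NF-κB consensus motif, on either strand.
Ccl9, chr11:83578617-83578816, minus strand: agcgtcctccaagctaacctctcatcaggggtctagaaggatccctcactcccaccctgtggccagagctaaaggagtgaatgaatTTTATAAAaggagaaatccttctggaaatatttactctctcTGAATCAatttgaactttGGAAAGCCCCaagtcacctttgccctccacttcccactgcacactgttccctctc
Ccl6, chr11:83593068-83593267, minus strand: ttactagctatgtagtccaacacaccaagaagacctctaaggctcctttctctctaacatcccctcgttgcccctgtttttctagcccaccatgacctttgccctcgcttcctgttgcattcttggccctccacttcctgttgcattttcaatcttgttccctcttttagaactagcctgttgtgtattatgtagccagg
Ccl12, chr11:82101665-82101864, plus strand: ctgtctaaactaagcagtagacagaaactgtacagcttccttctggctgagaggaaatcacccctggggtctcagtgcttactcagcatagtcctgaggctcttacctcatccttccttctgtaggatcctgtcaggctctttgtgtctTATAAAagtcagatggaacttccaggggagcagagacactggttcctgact
Ccl3, chr11:83649359-83649558, minus strand: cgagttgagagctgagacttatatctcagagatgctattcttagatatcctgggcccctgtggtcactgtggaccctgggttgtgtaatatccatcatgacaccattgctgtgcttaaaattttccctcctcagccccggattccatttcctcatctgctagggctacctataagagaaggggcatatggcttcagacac
In the whole window of 250 bases before to 50 bases after the start, the Ccl9 promoter held all 3 motifs. Its NF-κB consensus match began 35 bases before the start, its AP-1 match began 53 bases before it, and an overlapping pair of TATA matches on opposite strands began 94 and 92 bases before it. A further TATA match began 224 bases before the start. Ccl12 held the TATA motif 31 bases before the start, the usual place of a TATA box. The windows of Ccl6, Ccl3 and Ccl22 held none of the 3 motifs as spelled here. Among all 32851 promoter entries of this length, 4.51% held the NF-κB consensus motif, 7.81% the AP-1 motif and 13.6% the TATA motif. The longest run of bases shared by any 2 of the 5 promoters had 13 bases, gccctccacttcc, and was shared by Ccl6 and Ccl9.

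The libraries held between 15526321 and 17135442 fragments on genes, as recovered from the FPKM values. The library scale of the deposited FPKM was 1.34 to 1.45 times these totals in Control and 0.909 to 0.998 times in the other groups, so that FPKM of Control are low relative to the totals. Rescaling to the totals moved the median log2 fold change of all genes in Model vs. Control from 0.04 to -0.40. Model replicate 1 stood apart by the number of genes with at least 1 fragment, 24906 against 17406 to 19200 in the other libraries. All 8 macrophage markers were expressed, with summed levels of 11961 to 13746 FPKM in Control, 9574 to 14283 in Model and 11397 to 13236 in MUS, most of it Lyz2. Within this list Csf1r went from 208 and 272 FPKM in Control to 83.4 to 105 FPKM in the stimulated libraries, whereas Cd14 went from 125 and 406 to between 1140 and 1748 FPKM and Fcgr1 from 18.3 and 7.87 to between 134 and 161 FPKM. The 6 markers of T and innate lymphocytes, the 4 of B cells and the 5 of mast cells had summed levels of at most 0.483, 1.59 and 1.01 FPKM in any library. The 5 eosinophil markers summed to 1.42 to 4.17 FPKM, with Epx, Prg2 and Ear6 listed at 0, and the 4 stromal and mesothelial markers to 6.25 to 16.1 FPKM. The 6 neutrophil markers summed to 13.5 to 30.9 FPKM in Control, 57.7 to 112 in Model and 50.8 to 64.6 in MUS, almost all from S100a8, with Ly6g, Elane and S100a9 listed at 0. The 6 dendritic cell markers summed to 1.52 to 2.50, 7.24 to 7.33 and 5.82 to 8.35 FPKM in the same order, with Cd209a the highest in Control (0.746 and 1.10 FPKM) and Ccr7 the highest in each stimulated library (3.71 to 6.50 FPKM). The part of these other cells in the chemokine levels was not tested. In bulk libraries, more cells making a chemokine and more of its RNA per cell cannot be told apart.

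In Model vs. Control, which shows the response to LPS and ATP, 8 of the 10 CC chemokines rose and none fell. A gene was called where limma gave a p of 0.05 or less after Benjamini-Hochberg adjustment and its log2 fold change was beyond 1 in either direction. Among all 9794 genes tested, 9.5% passed as higher and 5.56% as lower. Ccl12 and Ccl22, with Control means of 0.203 and 0.658 FPKM, passed the filter on low values only through the stimulated libraries. The filter thus favours a rise over Control for them. The median log2 fold change was 4.86 over the 10 genes and 0.04 over all genes tested, on the log2(FPKM + 1) scale, which understates the change of low genes. Ccl9 was also above Control in both Model libraries without passing the test, and the Ccl6 levels of the groups overlapped. Both Model libraries lay above both Control libraries for 9 of the 10 genes, a pattern found in 32.6% of all genes tested. Without the filter on low values 30192 genes were tested, of which 228 passed as higher and 32 as lower, and 4 of the 10 chemokines passed (Ccl2, Ccl7, Ccl12 and Ccl22). Ccl7 had the 6th largest increase among all genes tested, Ccl4 the 17th and Ccl2 the 19th.

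**Figure D1:**
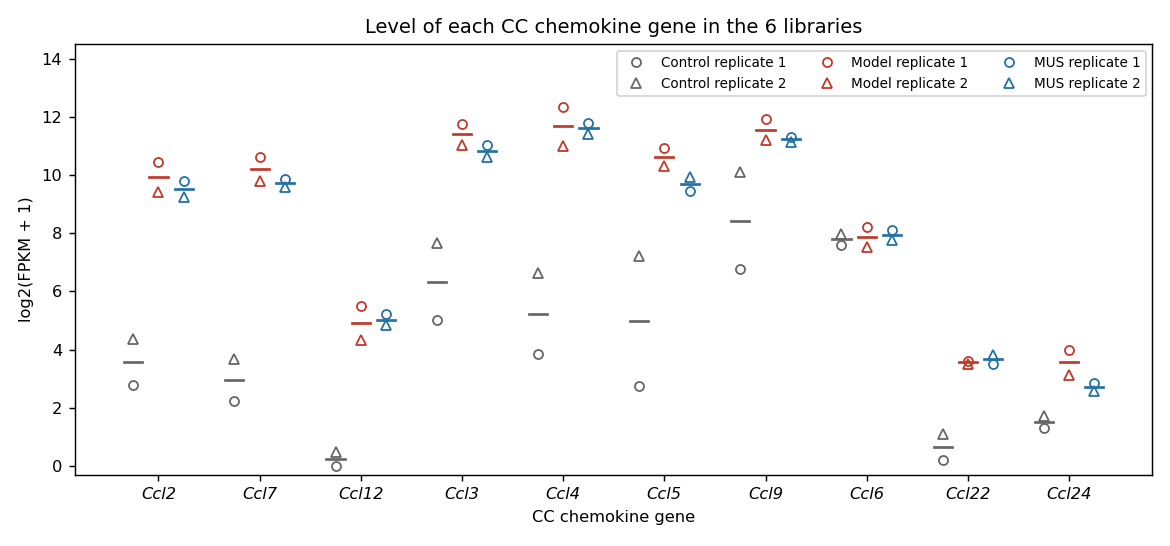
Level of each CC chemokine gene on the log2(FPKM + 1) scale in the 6 libraries, with circles for replicate 1, triangles for replicate 2 and a bar at the mean of each group (n = 2). Control lies below Model and MUS for every gene except Ccl6, and Control replicate 2 lies above Control replicate 1 for all 10 genes.

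The Ccr2 ligands, which recruit monocytes, all rose in Model vs. Control, and Ccl7 and Ccl2 ranked 30th and 33rd among all genes by level in Model replicate 1 and 38th and 51st in Model replicate 2. Ccl7 (ENSMUSG00000035373, chromosome 11, 82045712 to 82047525, plus strand) stood at 3.71 and 11.95 FPKM in Control, 1571 and 891 FPKM in Model, and 925 and 771 FPKM in MUS. The groups of untreated and stimulated cells were far apart, and the lower MUS library was below both Model libraries while the higher was not. Its mean rose from 7.83 ± 5.82 FPKM in Control to 1231 ± 480.4 FPKM in Model (SD, n = 2 each), with a log2 fold change of 7.24 (standard error 0.54, limma adjusted p = 0.00107). Ccl2 (ENSMUSG00000035385, chromosome 11, 82035571 to 82037453, plus strand), the main monocyte attractant, stood at 5.92 and 19.4 FPKM in Control, 1399.95 and 684 FPKM in Model, and 894 and 598 FPKM in MUS. It rose by 6.37 on the log2 scale (standard error 0.60, limma adjusted p = 0.00201). No Control library came near the stimulated libraries, whereas Model and MUS overlapped. Ccl12 (ENSMUSG00000035352, chromosome 11, 82101845 to 82103400, plus strand), a mouse relative of Ccl2, was much less abundant, with 0 and 0.407 FPKM in Control, 44.3 and 19.0 FPKM in Model, and 36.0 and 28.0 FPKM in MUS. Its Control values rest on 0 and 5 fragments, and a count of 0 allows up to 3 fragments or 0.244 FPKM. The log2 fold change of Ccl12 was 4.67 (standard error 0.41, limma adjusted p = 0.00157), a value held down by the added 1. It was 7.02 with a pseudocount of 0.1 (limma adjusted p = 0.00437) and 7.65 with voom (limma adjusted p = 0.00984), and against Control libraries of so few fragments none of these values is a bound.

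Ccl3 and Ccl4, the macrophage inflammatory proteins, and Ccl5, which draws T cells, all rose in Model vs. Control. Ccl4 (ENSMUSG00000018930, chromosome 11, 83662584 to 83664683, plus strand) stood at 13.3 and 97.6 FPKM in Control, 5173 and 2042 FPKM in Model, and 3532 and 2723 FPKM in MUS. It was the 6th and 16th most abundant gene of the table in the Model libraries and the 8th and 10th in the MUS libraries. Both MUS libraries lay between the Model libraries, and all 4 lay far above Control. Ccl4 rose by 6.44 on the log2 scale (standard error 0.90, limma adjusted p = 0.00604). Ccl3 (ENSMUSG00000000982, chromosome 11, 83647844 to 83649355, minus strand) had 31.4 and 202 FPKM in Control, 3478 and 2099 FPKM in Model, and 2101 and 1568 FPKM in MUS. The higher MUS library (2101 FPKM) was level with the lower Model library (2099 FPKM). Ccl3 rose by 5.06 on the log2 scale (standard error 0.81, limma adjusted p = 0.00922) and was not called without Model replicate 1 (limma adjusted p = 0.0651). Ccl5 (ENSMUSG00000035042, chromosome 11, 83525778 to 83530518, minus strand) had 5.65 and 147 FPKM in Control, 1946 and 1281 FPKM in Model, and 701 and 975 FPKM in MUS. Its Control libraries differed 26.0-fold, the widest gap of any of the 10 genes within a group among those above 0 in both libraries. The log2 fold change of Ccl5 was 5.66 (standard error 1.25, limma adjusted p = 0.0255). This call was lost without Model replicate 1 (limma adjusted p = 0.124), Model replicate 2 (0.0747), MUS replicate 1 (0.0600) or MUS replicate 2 (0.0596), the last 2 of which belong to neither group and enter only the estimate of the spread.

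Ccl6 and Ccl9, the Ccr1 ligands, were the most abundant CC chemokines of untreated cells, and neither passed the test in Model vs. Control. They are neighbours on the same strand. Ccl6 (ENSMUSG00000018927, chromosome 11, 83587882 to 83593087, minus strand) had 192 and 253 FPKM in Control, 297 and 183 FPKM in Model, and 273 and 219 FPKM in MUS. The 3 groups overlapped. Model differed from Control by 0.08 on the log2 scale, with a 95% confidence interval of -0.82 to 0.99 (limma adjusted p = 0.897). The sign depended on the scaling, as the log2 fold change was -0.46 after rescaling to fragment totals, where the median of all genes was -0.40, and -0.91 with quantile normalization, where it was -0.06. Ccl9 (ENSMUSG00000019122, chromosome 11, 83572919 to 83578636, minus strand) had 107 and 1099 FPKM in Control, 3842 and 2376 FPKM in Model, and 2557 and 2246 FPKM in MUS. Control replicate 2 was thus already nearer to the lower Model library than to the other Control library on the log2 scale. Ccl9 had a log2 fold change of 3.13 in Model vs. Control and missed the threshold (standard error 0.98, limma adjusted p = 0.0706). Without Control replicate 1 its log2 fold change was 1.46 (limma adjusted p = 0.132). Without Control replicate 2 it was 4.80 and passed (limma adjusted p = 0.00135), as it did with voom on the recovered fragments (3.06, limma adjusted p = 0.0459). In Ccl9, 1.97% of the 50-base stretches of its transcripts also occur in transcripts of other genes, against 0% for the other 9 chemokines. The promoters printed above show that the Ccl9 window holds NF-κB, AP-1 and TATA matches and the Ccl6 window none, which describes the letters and does not show binding. The windows of Ccl3 and Ccl22, both called as higher in Model vs. Control, held none of the 3 motifs either. Ccl12, also called, held only the TATA motif. A link between motifs and levels was not tested.

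The chemokines for T cells and eosinophils, Ccl22 and Ccl24, were expressed at low levels and also rose in Model vs. Control. Ccl22 (ENSMUSG00000031779), a Ccr4 ligand made by macrophages and dendritic cells, had 0.150 and 1.17 FPKM in Control, 11.2 and 10.4 FPKM in Model, and 10.5 and 13.0 FPKM in MUS. The Model and MUS libraries overlapped and lay well above Control. It rose by 2.90 on the log2 scale in the Model cells (standard error 0.32, limma adjusted p = 0.00322), and by 4.54 with voom, which adds no 1 to the FPKM (limma adjusted p = 0.00424). Ccl24 (ENSMUSG00000004814), an eosinophil attractant, had 1.49 and 2.26 FPKM in Control, 14.9 and 7.77 FPKM in Model, and 6.23 and 5.04 FPKM in MUS. The 3 groups did not overlap, with MUS in between. It rose by 2.05 on the log2 scale in the Model cells (standard error 0.32, limma adjusted p = 0.00865). The levels of Ccl24 rest on 44 to 273 fragments per library and those of Ccl22 on 8 to 490.

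**Figure D2:**
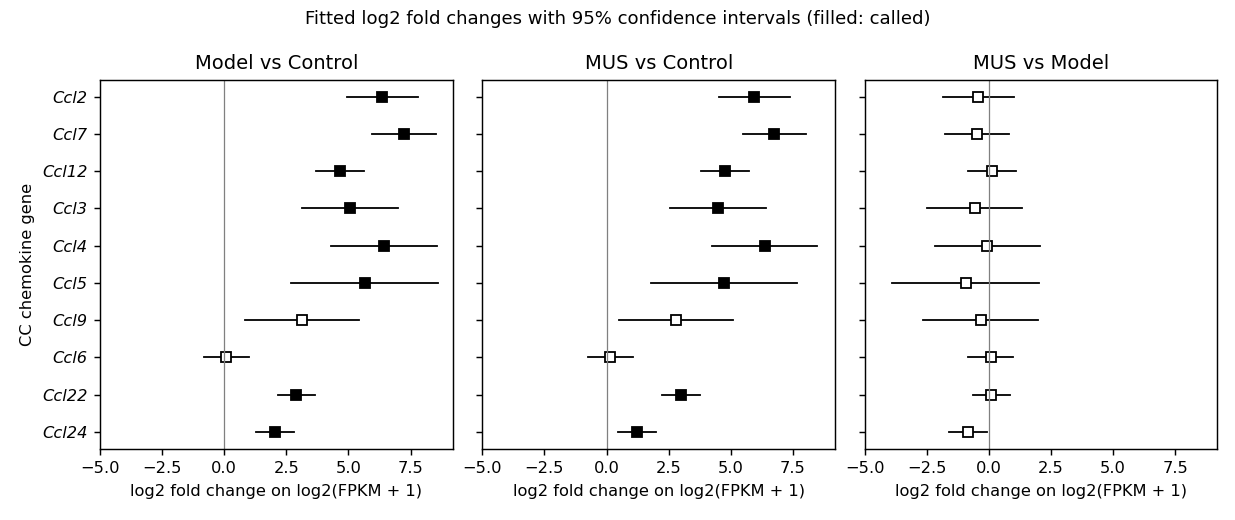
Fitted log2 fold change of each CC chemokine gene (squares) with its 95% confidence interval (lines) in the 3 comparisons, filled where the gene passed the limma test. In Model vs. Control and in MUS vs. Control 8 genes are filled, and in MUS vs. Model none is.

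With 2 libraries per group, the replicates were compared directly. Control replicate 2 held more than Control replicate 1 of all 10 genes, and for 6 of them the difference on log2(FPKM + 1) was over 1. Among all genes tested, replicate 2 was higher in 53.2%, and higher by over 1 in 5.93%. The same library held 62.1 times as much Il1b and 21.2 times as much Tnf as Control replicate 1, so other LPS-induced cytokine genes differed there too. Among the chemokines above 0 in both Control libraries, the replicate 2 to replicate 1 ratio ran from 1.32 for Ccl6 and 1.52 for Ccl24 to 10.2 for Ccl9 and 26.0 for Ccl5. In Model, replicate 1 was the higher library for all 10 genes, by up to 1.34 on the log2 scale (Ccl4). Among all genes tested, replicate 2 was the higher Model library in 48%. In MUS the libraries were closer, and none of the 10 genes differed by over 1, against 1.8% of all genes tested. Without Control replicate 2, 9 of the 10 genes were called in Model vs. Control, without Control replicate 1 it was 8, and without Model replicate 1 it was 6. All genes called as higher numbered 1237, 534 and 552 of 9794 in the same fits. The sample labels give the replicate number as a batch. Within batch 1 the difference of Model from Control was 8.19 for Ccl5 and 5.15 for Ccl9, and within batch 2 it was 3.12 and 1.11. The direction was the same in both batches for 9 genes and differed for Ccl6 (0.63 and -0.47). The share of all genes with the same direction in both batches was not counted.

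**Figure D3:**
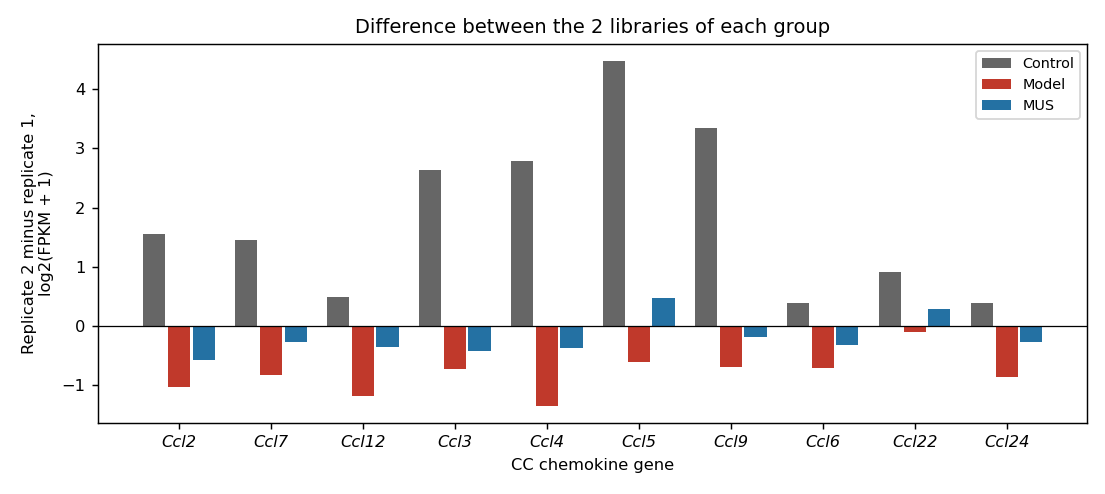
Replicate 2 minus replicate 1 on the log2(FPKM + 1) scale for each CC chemokine gene, with 1 bar per group. All Control bars are above 0 (up to 4.47 for Ccl5), all Model bars are below 0, and no MUS bar is longer than 1.

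In MUS vs. Model, which asks what muscone added before ATP changed, none of the 10 CC chemokines was called, and no gene of the 9794 was (percent called 0). Of all genes tested, 825 had an unadjusted limma p under 0.05, namely 2.61% as higher and 5.81% as lower in MUS, and among the chemokines Ccl24 alone did, as lower. The fitted log2 fold change was below 0 for 7 of the 10 chemokines, against 48.7% of all genes tested, with a median of -0.38 against 0.01. Ccl24 had 49.6% of the Model mean in MUS, with a log2 fold change of -0.84 and a 95% confidence interval of -1.60 to -0.07 (limma adjusted p = 0.540, 0.0356 before adjustment). Ccl5 had 51.9% of the Model mean, with a log2 fold change of -0.93 and an interval of -3.89 to 2.02 (limma adjusted p = 0.894). Ccl5 and Ccl24 were the 2 chemokines whose MUS libraries both lay below both Model libraries, which held for 21% of all genes tested. Ccl3, Ccl7, Ccl2 and Ccl9 had 65.8%, 68.9%, 71.6% and 77.2% of the Model mean, and Ccl4 had 86.7%. Their MUS and Model libraries overlapped. Ccl12, Ccl6 and Ccl22 stood at 101%, 102% and 108% of the Model mean.

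The width of the intervals limits what these 2 libraries per group can show. For Ccl22 the interval on log2(FPKM + 1), which narrows the spread of low genes, reached from -0.66 to 0.85, and for Ccl4 from -2.19 to 2.05. A fall by 1 on the log2 scale was within the interval for 7 of the 10 genes, so the missed threshold does not show that their levels stayed the same. Without Model replicate 1, the higher Model library for all 10 genes, the log2 fold change was 0.10 for Ccl2, 0.60 for Ccl4 and 0.01 for Ccl9, so the sign of these depended on 1 library. That of Ccl5 was then -0.63 and that of Ccl24 -0.41. Between batch 1 and batch 2 the difference of MUS from Model changed sign for Ccl4 (-0.55 and 0.42) and Ccl6 (-0.13 and 0.26). It did so too for Ccl12 (-0.29 and 0.54) and Ccl22 (-0.09 and 0.29). The other 6 were lower in both batches, and the share of all genes was not counted. Batch 1 holds the higher Model library of all 10 genes.

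In MUS vs. Control, 8 of the 10 CC chemokines rose, against 11.3% of all genes tested called as higher and 8.91% as lower. These were Ccl2, Ccl3, Ccl4, Ccl5, Ccl7, Ccl12, Ccl22 and Ccl24, the same 8 as in Model vs. Control, which shares the Control libraries. Here too the filter favours a rise of Ccl12 and Ccl22, which passed it only through the stimulated libraries. The log2 fold changes were 6.76 for Ccl7, 6.37 for Ccl4, 5.95 for Ccl2, 4.79 for Ccl12, 4.72 for Ccl5, 4.49 for Ccl3, 3.004 for Ccl22 and 1.21 for Ccl24 (limma adjusted p from 0.00128 for Ccl7 to 0.0357 for Ccl24). Ccl9 had a log2 fold change of 2.80 (limma adjusted p = 0.0779) and Ccl6 one of 0.15 (limma adjusted p = 0.801). Ccl2, Ccl7, Ccl12 and Ccl22 were called whichever library was left out. Without MUS replicate 1 they were the only 4 called, and without MUS replicate 2 Ccl4 was called beside them. Ccl5 was not called without any 1 of the Model or MUS libraries (limma adjusted p from 0.0616 without Model replicate 2 to 0.162 without MUS replicate 1). Ccl24 was not called without Control replicate 1 (log2 fold change 1.02, limma adjusted p = 0.167).

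Together the 10 genes took up 0.105% and 0.560% of all fragments on genes in the Control libraries, 2.10% and 1.33% in the Model libraries, and 1.37% and 1.23% in the MUS libraries. All stimulated libraries were above both Control libraries, and both MUS libraries lay near the lower Model library. The composition of the family also changed, which is free of the library scale because it compares genes within a library. Ccl6 made up 53.2% and 13.8% of the summed FPKM of the 10 genes in Control, but 1.67% and 1.90% in Model and 2.47% and 2.39% in MUS. Ccl9 made up 29.7% and 60.0% in Control and between 21.6% and 24.8% in the stimulated libraries. Ccl4 went from 3.67% and 5.33% in Control to 29.1% and 21.3% in Model, and its share was 32.0% and 29.8% in MUS. The order of levels in Control was thus led by Ccl6 and Ccl9, whereas in Model and MUS Ccl4, Ccl9 and Ccl3 led. These 3 changed places between the Model libraries, so their order there does not stand above the spread. Ccl5, Ccl7 and Ccl2 followed, with their order differing between the MUS libraries, then Ccl6, and far below them Ccl12, Ccl22 and Ccl24. Ccl22 and Ccl24 changed places between the Model libraries as well.

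**Figure D4:**
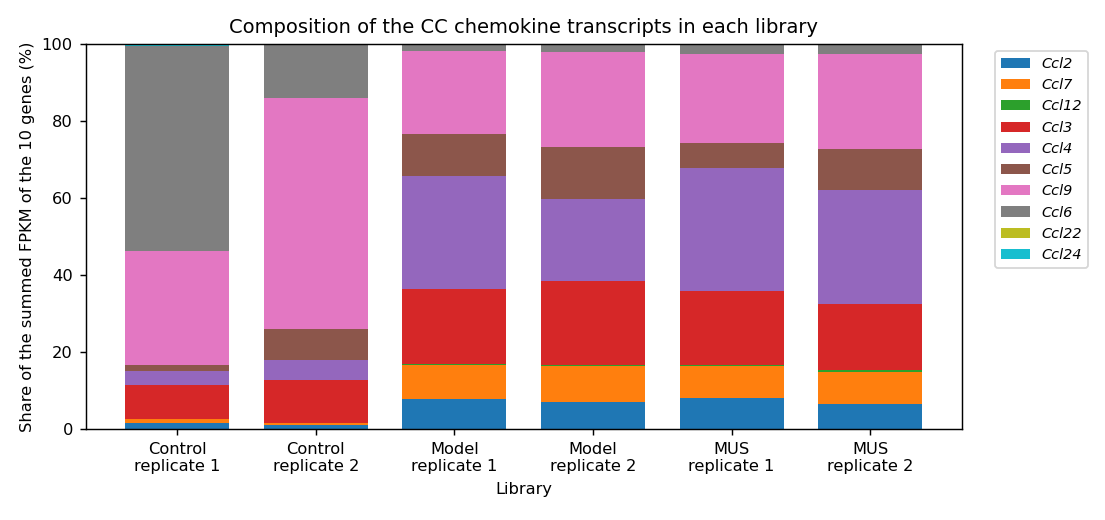
Share of each gene in the summed FPKM of the 10 CC chemokine genes (stacked bars, percent) in each of the 6 libraries. Ccl6 and Ccl9 fill most of both Control bars, while Ccl4, Ccl9 and Ccl3 fill most of the Model and MUS bars.

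Ratios between neighbouring genes, chosen after their values were seen, show this in single libraries. The Ccl4 to Ccl3 ratio was 0.422 and 0.484 in the Control libraries, 1.49 and 0.973 in the Model libraries, and 1.68 and 1.74 in the MUS libraries, so the 3 groups did not overlap. The Ccl7 to Ccl2 ratio was 0.627 and 0.616 in the Control libraries, 1.12 and 1.304 in the Model libraries, and 1.04 and 1.29 in the MUS libraries. It was close between the Control libraries although Ccl7 differed 3.22-fold and Ccl2 3.28-fold between them. The Ccl9 to Ccl6 ratio was 0.559 and 4.35 in the Control libraries, 12.9 and 13.0 in the Model libraries, and 9.38 and 10.3 in the MUS libraries. The Model libraries were nearly equal in this ratio and both stood above MUS. The Ccl5 to Ccl9 ratio was 0.0526 and 0.133 in the Control libraries, 0.506 and 0.539 in the Model libraries, and 0.274 and 0.434 in the MUS libraries. The smallest p that exact permutation can give for 2 against 2 libraries is 0.333, so these ratios are descriptions. How many other pairs of genes separate the groups in this way was not counted.

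Along chromosome 11 the increases were not shared by all genes of a group. Between Ccl2 and Ccl12 the table lists 5 genes. Ccl11, the eotaxin gene between Ccl7 and Ccl12, is listed at 0 in all 6 libraries, as is Gm17268, which overlaps Ccl2 on the other strand. Between Ccl5 and Ccl4 it lists 7 genes, of which the 5 chemokines passed the filter. Ccl6 lies between Ccl9, which did not pass the test at a log2 fold change of 3.13, and Ccl3, which rose, and its own value was 0.08. E230016K23Rik, a processed transcript on the other strand that overlaps Ccl6, had a mean of 0.688 FPKM against 236 FPKM for Ccl6, and reads of the 2 genes cannot be told apart without strand. These genes outside the family were named because of their position, after their values were seen.

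**Figure D5:**
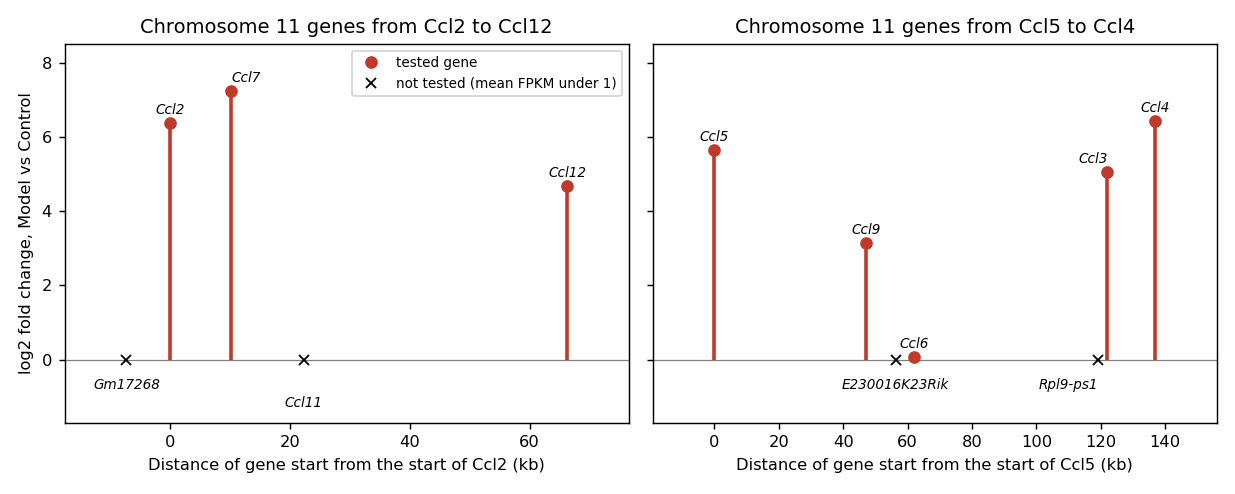
Fitted log2 fold change in Model vs. Control (red) of the genes in the 2 chemokine groups of chromosome 11, against the distance of the gene start from that of Ccl2 or Ccl5 in kb, with crosses for genes under a mean of 1 FPKM. Ccl6 lies at 0.08 between Ccl9 at 3.13 and Ccl3 at 5.06.

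The gene profiles were also compared by the root mean square difference of log2(FPKM + 1) over the 6 libraries, after centring each gene on its mean. For Ccl4, the chemokine with the highest mean, the nearest genes outside the family were AA467197 (0.14), Il1a (0.31) and Ms4a4c (0.33). Il1a encodes interleukin-1 alpha, another LPS-induced cytokine. Among the chemokines, the nearest to Ccl4 was Ccl2 (0.41), and the nearest to Ccl7 was also Ccl2 (0.42). The nearest to Ccl5 was Ccl3 (0.64). For Ccl6, the chemokine with the lowest log2 fold change, the nearest genes were Dnajb4 (0.07), Eif1ax (0.08) and Rgcc (0.09), and 8342 genes were nearer to it than any other chemokine of the family. For Ccl7 and Ccl2, 1 and 2 of the genes tested were nearer than the nearest chemokine, and for Ccl4 and Ccl5 4 and 11. The number was 48 for Ccl3, 70 for Ccl12, 136 for Ccl9, 581 for Ccl22 and 2981 for Ccl24. The measure also depends on the size of the changes.

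The rest of the CC family was nearly silent. Of the 15 other CC chemokine genes sought, 14 were in the table, in 20 rows, 13 of which were at 0 in every library. The 2 that passed the filter were Ccl17, a Ccr4 ligand like Ccl22, and Ccl8. Ccl17 had 0.0851 and 0.680 FPKM in Control, 3.72 and 1.76 FPKM in Model, and 2.96 and 1.56 FPKM in MUS, from 1 to 27 fragments. It rose in Model vs. Control (log2 fold change 1.42, limma adjusted p = 0.0433). Ccl8 had 0.0856 and 0.770, 2.36 and 1.52, and 1.42 and 0.964 FPKM in the same order, with a log2 fold change of 1.07 in Model vs. Control (limma adjusted p = 0.0609). Neither was called in MUS vs. Model or in MUS vs. Control. Both passed the filter only through the stimulated libraries, so the filter favours a rise over Control for them. The other 5 rows with fragments had means of at most 0.451 FPKM.

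Of the 14 CC receptor genes described here, 4 passed the filter, and in Model vs. Control 3 rose and none fell. Of all genes tested, 9.5% were called as higher and 5.56% as lower there. Ccr1, the receptor of Ccl3, Ccl5, Ccl6 and Ccl9, had 44.4 and 29.1 FPKM in Control, 120 and 95.4 FPKM in Model, and 85.9 and 100.3 FPKM in MUS. It rose by 1.55 on the log2 scale (limma adjusted p = 0.0227). Ccrl2, an atypical receptor that binds chemerin, had a log2 fold change of 2.33 (limma adjusted p = 0.0300) and Ccr7 one of 1.97 (0.00683). Ccr2, the receptor of Ccl2, Ccl7 and Ccl12, had 3.28 and 0.976 FPKM in Control, 0.524 and 0.601 FPKM in Model, and 0.480 and 0.419 FPKM in MUS. Its log2 fold change of -0.90 in Model vs. Control did not pass (limma adjusted p = 0.141). Ccr2 passed the filter only through Control, and Ccr7 (0.398 and 0.884 FPKM in Control) only through the stimulated libraries. The receptor of Ccl22, Ccr4, had at most 0.0398 FPKM and that of Ccl24, Ccr3, at most 0.455 FPKM in any library. None of the 4 receptor genes was called in MUS vs. Model. Both MUS libraries lay above both Model libraries for Ccrl2 (log2 fold change 0.89, limma adjusted p = 0.729), as for 21.2% of all genes tested. For Ccr2 both lay below, as for 21% of all genes, and for Ccr1 and Ccr7 the libraries overlapped.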

How the data were processed

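Poly-A RNA-seq of 6 libraries was analysed, 2 per group, mapped to Control, Model and MUS by the sample labels. The table deposited by the authors holds FPKM per gene, which the study's methods credit to RSEM, whereas the submitters' processing notes name HISAT2, featureCounts 1.5.0-p3 and GRCm39. The listed positions match GRCm38 instead, since 98.3% of the 54495 gene IDs shared with GENCODE M21 agreed in start and end. The annotation release and the strand setting are not given in the sources used here.

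Genes with a mean of at least 1 FPKM were fitted as log2(FPKM + 1) with limma 3.58.1 (lmFit and eBayes with trend, two-sided) in R 4.3.3, all 6 libraries in 1 model which left 3 residual degrees of freedom. Adjustment was by Benjamini-Hochberg over all 9794 genes, with thresholds of an adjusted p of 0.05 and an absolute log2 fold change of 1. FPKM times gene length gave whole fragments (within 0.1) in all libraries. These served for depth, counting limits, rescaling to totals, and limma's voom with TMM factors (trimmed mean of M values). The script was tested on simulated data. No 2 libraries agreed within sampling noise.

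The labels give the replicate number as a batch, and the differences within a batch pair the libraries by this number alone. The main fit held no batch term. The deviations of same-numbered libraries correlated with r = 0.119 (Control and Model), 0.136 (Model and MUS) and -0.0928 (Control and MUS) over genes.

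The members and all gene lists were chosen with earlier results of these data known. Named genes were the 10 chemokines, the other CC chemokines and the receptors with a mean of at least 1 FPKM, the 3 nearest profiles of the chemokine with the highest mean and of that with the lowest log2 fold change in Model vs. Control, and Il1b and Tnf. A gene of the receptor list is not reported here. Alternatives were a pseudocount of 0.1, no filter, a replicate block, only the groups compared, quantile normalization, fragment totals, voom, and leaving out each library. Promoters came from RefSeq (GRCm38.p6) and were searched on both strands.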

Additional observations from a re-analysis of the deposited data

How the results depend on the processing

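With all libraries kept, 7 to 9 CC chemokines were called in Model vs. Control and 7 or 8 in MUS vs. Control, except that without the filter on low values 4 were called there and 4 in MUS vs. Control, with 30192 genes tested. Without the filter, 260 genes were called in Model vs. Control (1475 with it) and 456 in MUS vs. Control (1980 with it), and with only the groups compared, 797 were called in Model vs. Control. In MUS vs. Model, where no gene was called, the number was 1 with a pseudocount of 0.1, 4 with the replicate block and 7 with only the groups compared, and no chemokine was among them. The replicate block changed no call of a chemokine and gave 8, 0 and 8 called in Model vs. Control, MUS vs. Model and MUS vs. Control. Fragment totals gave 646 genes as higher and 1554 as lower in Model vs. Control, quantile normalization 707 and 715, and the deposited scale 930 and 545.

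Ccl6 changed sign, to -0.91 (quantile) and -0.46 (fragment totals) in Model vs. Control and to -0.72 and -0.39 in MUS vs. Control, and Ccl4 in MUS vs. Model to 0.18 (quantile). The call of Ccl5 was lost with only the groups compared and with quantile normalization, and that of Ccl24 in MUS vs. Control with fragment totals and voom. The cause was not tested. With voom, which adds no 1 to the FPKM, the log2 fold changes of Ccl12 and Ccl22 in MUS vs. Control were 7.78 and 4.65, against 4.79 and 3.004.

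Leaving out 1 library at a time, with a lone library assumed to vary like the other groups, gave 692 to 2077 genes and 6 to 9 chemokines called in Model vs. Control, 0 to 31 genes and 0 chemokines in MUS vs. Model, and 184 to 2398 genes and 4 to 9 chemokines in MUS vs. Control. The log2 fold change of Ccl6 then ran from -0.27 to 0.43 in Model vs. Control and from -0.049 to 0.35 in MUS vs. Control. In MUS vs. Model it ran from -0.94 to 0.10 for Ccl2, -0.74 to 0.60 for Ccl4, -0.28 to 0.42 for Ccl6, -0.68 to 0.012 for Ccl9, -0.47 to 0.71 for Ccl12 and -0.043 to 0.24 for Ccl22. Counting error limits the Control values of Ccl12 (0 and 5 fragments) and Ccl22 (8 and 62 fragments), and 2 libraries per group limit all chemokines.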
